A study of Mus musculus with 6 samples.

Results

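Axon guidance genes of the Eph, Slit-Robo and netrin systems were followed in spinal cord neural stem cell cultures of adult mice that had been sorted on a PDGFRa-GFP reporter. The members were taken from the gene table by symbol: all EphA and EphB receptors, A and B ephrins, Slits, Robos, numbered netrins and Unc5 receptors, with Dcc and Neo1. The rule found 39 of the 26264 genes in the table, 15 of them ligands and 24 receptors. Of these, 32 had enough counts to be tested, 13 ligands and 19 receptors.

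Bulk RNA was sequenced in 6 libraries, 3 of GFP-positive and 3 of GFP-negative cells. All cells were of C57BL6J background, labelled as neural stem cells from spinal cord, kept in medium with EGF and FGF2, and sorted by FACS. The genotype is given as PDGFRaGFP/+ for the GFP-positive cells and PDGFRaGFP/- for the GFP-negative cells, so the sorted fraction and the labelled genotype cannot be told apart. The labels give no age in weeks and no sex, do not say how the reporter was built, and do not say how many animals or cultures the libraries come from. Replicate numbers 1, 2 and 3 stand for the title numbers 314, 315 and 316, each shared by 1 library of either fraction.

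Total counts lay between 31067850 and 45207335 per library. Pdgfra stood between 205 and 245 CPM (counts scaled to library size) in the GFP-positive libraries and between 8.04 and 19.3 CPM in the GFP-negative ones, the highest in replicate 2. The 6 neural stem cell markers Sox2, Nes, Fabp7, Sox9, Msi1 and Vim were all present in both fractions and summed to 2371 to 2488 CPM in GFP-positive cells, against 5801 to 6599.5 CPM in GFP-negative libraries. The 6 oligodendrocyte precursor markers, all called higher in GFP-positive cells, summed to 3876 to 4078 CPM there and 2105 to 2350.2 CPM in GFP-negative libraries. Olig1 and Olig2 made up most of these sums and were higher by 0.50 and 0.66 on the log2 scale. Cspg4, Sox10, Gpr17 and Pdgfra were higher by 1.14, 3.28, 3.85 and 4.06. Of the stem cell list, Sox2, Nes, Fabp7 and Vim were called lower in GFP-positive cells, Sox9 was called higher (0.34 on the log2 scale) and Msi1 was not called (0.12). The 6 astrocyte markers summed to 247 to 326 CPM in GFP-positive and 2116 to 2496 CPM in GFP-negative libraries. Slc1a3 made up most of these sums, with means of 244 and 1792 CPM. Slc1a3, Gfap, Aqp4, Aldh1l1 and Mlc1 were each called lower in GFP-positive cells, and Gjb6 was not tested. Of 6 endothelial markers 4 stayed under 1 CPM in every library, as did 5 of 6 fibroblast and mural, 5 of 6 microglial and 3 of 6 neuronal markers. The other neuronal markers, Snap25, Syt1 and Rbfox3, were all called higher in GFP-positive cells (log2 fold changes 1.71, 2.37 and 1.88), and the neuronal list summed to 32.4 to 39.8 CPM there and 7.31 to 13.4 CPM in GFP-negative libraries. In bulk RNA, fewer cells of a type and less RNA per cell cannot be told apart, and the part of cell makeup in the results was not tested.

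These families carry contact and distance cues. Eph receptors are tyrosine kinases that bind membrane-held ephrins on neighbouring cells, with A ephrins anchored by a lipid and B ephrins spanning the membrane, and both sides can signal. Slits are secreted ligands of Robo receptors and mostly repel. Netrins are secreted, laminin-related proteins that attract through Dcc and neogenin (Neo1) and repel through Unc5 receptors, alone or with Dcc. In the developing spinal cord, netrins made by ventral cells guide commissural axons, and oligodendrocyte precursors use the same cues as they disperse.

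Guidance genes differed between the fractions in both directions, and the receptors of 1 family often moved apart. Of the 32 tested members, 13 were higher and 11 lower in GFP-positive cells and 8 were not called (edgeR quasi-likelihood test, adjusted p below 0.05). That is 75% of the members, against 55.4% of all 14554 tested genes. Higher calls made up 26.1% and lower calls 29.2% of all tested genes. Among receptors 17 of 19 were called, 9 higher and 8 lower. Of the 13 ligands 7 were called, 4 higher and 3 lower, a share of 53.8% that is near that of all genes. Higher ligands numbered 2 without replicate 1 or without replicate 3, and lower ligands 5 without GFP-negative replicate 2. Whether receptors were called more often than ligands was not tested.

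The fold changes of the members were also spread more widely than those of the table as a whole. The median size of the log2 fold change, taken without its sign, was 0.97 over the tested members (1.60 in receptors and 0.92 in ligands) and 0.36 over all tested genes. With the sign kept, the medians were 0.27 and -0.01. By more than 1 on the log2 scale, 7 of the 32 members were called higher and 7 lower. Of all 14554 tested genes, 883 were called higher and 1784 lower by that much. The libraries of the fractions did not overlap in 26 of the 32 members, against 64.2% of all tested genes. The direction was the same in all 3 same-numbered pairs for each of the 24 called members. The same held for 8043 of the 8058 called genes of the whole table, so it sets the members apart in no way.

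**Figure D1:**
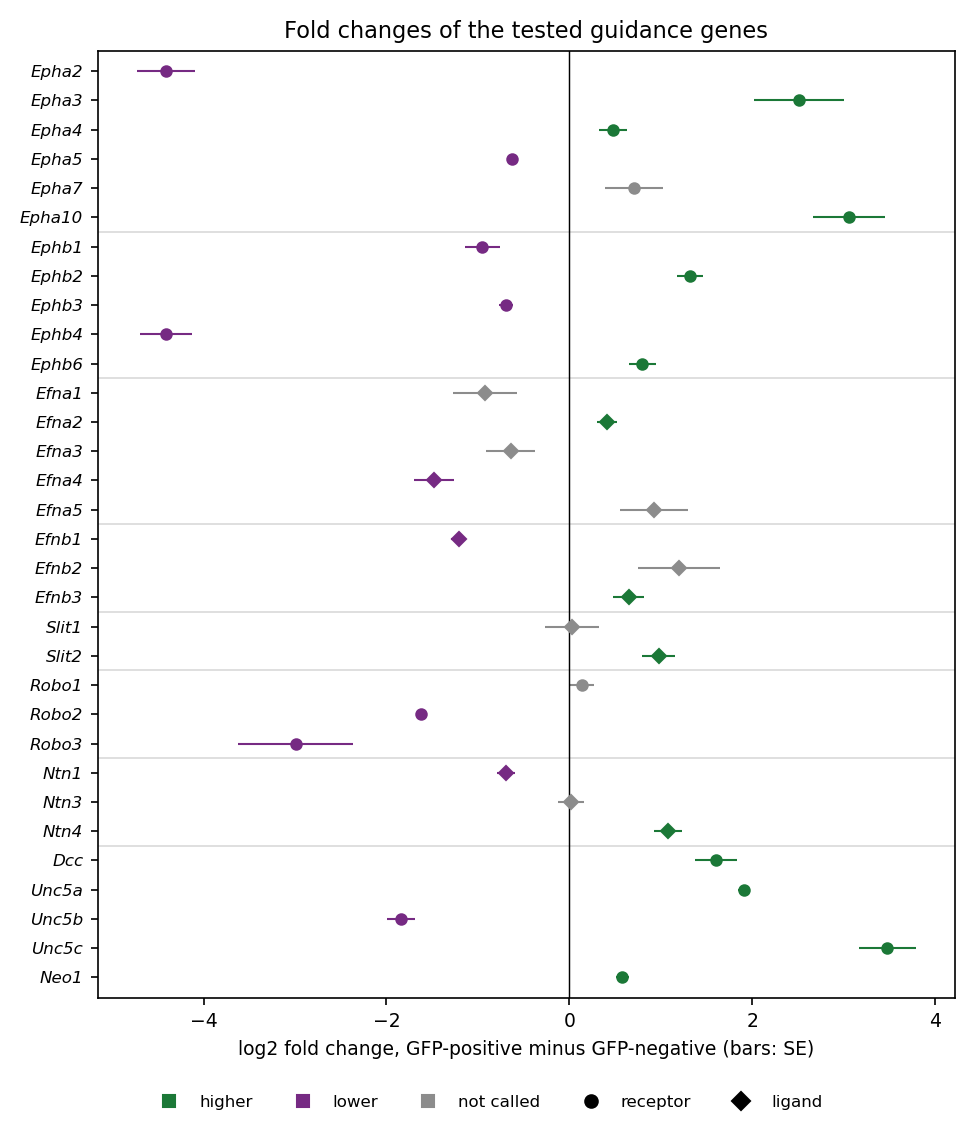
Log2 fold change of each of the 32 tested guidance genes, GFP-positive minus GFP-negative, with its SE as a bar, grouped by family from EphA receptors at the top to netrin receptors at the bottom; circles are receptors and diamonds ligands, green is higher, purple lower and grey not called. Epha2 and Ephb4 lie farthest to the left at -4.41 and Unc5c farthest to the right at 3.48.

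Of the 5 tested netrin receptors, 4 were higher in GFP-positive cells and 1 was lower. All 5 were called, against 55.4% of all tested genes. Unc5c (Entrez 22253), a repulsive netrin receptor, stood at 89.3, 102 and 88.3 CPM in GFP-positive replicates 1, 2 and 3 and at 5.46, 13.5 and 6.12 CPM in GFP-negative replicates 1, 2 and 3. Each GFP-positive library was far above each GFP-negative one. The log2 fold change was 3.48 (SE 0.31, adjusted p = 4.79e-05 in edgeR), or 11.1-fold, the largest increase among the tested members. Unc5a (Entrez 107448), a receptor of the same kind, was at 50.5, 56.4 and 52.9 CPM against 14.4, 13.9 and 14.2 CPM. Both fractions were tight, and the log2 fold change was 1.91 (SE 0.07, adjusted p = 1.79e-06 in edgeR).

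Unc5b (Entrez 107449) went the other way. This receptor, also known from blood vessel guidance, was at 2.51, 2.49 and 2.2 CPM in GFP-positive cells, against 9.64, 8.16 and 7.94 CPM in GFP-negative cells. The values did not overlap and gave a log2 ratio of -1.84 (SE 0.15, adjusted p = 3.15e-05 in edgeR), or 3.57-fold lower. Unc5d, the remaining Unc5 gene, had 16 counts in all GFP-positive and 2 in all GFP-negative libraries and was not tested.

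Both attractive receptors were higher. Dcc (Entrez 13176) stood at 259.6, 262 and 255 CPM in GFP-positive cells, nearly the same in each library. In GFP-negative cells it was at 65.7, 124 and 66.3 CPM, so replicate 2 was well above the other two. For Dcc the log2 fold change was 1.60 (SE 0.23, adjusted p = 5.64e-04 in edgeR). Neo1 (Entrez 18007), which binds netrins and repulsive guidance molecules, was at 221, 248 and 222 CPM against 143, 165 and 153 CPM. Its log2 fold change was 0.58 (SE 0.07, adjusted p = 2.73e-04 in edgeR).

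The netrins themselves were split. Ntn1 (Entrez 18208), the classical netrin of the spinal midline, was the most abundant ligand in CPM in either fraction. It stood at 152, 155 and 150.1 CPM in GFP-positive cells, against 269.8, 206 and 264 CPM in GFP-negative cells, without overlap, which gave a log2 ratio of -0.69 (SE 0.10, adjusted p = 5.88e-04 in edgeR). Ntn4 (Entrez 57764), a netrin found in basement membranes, was higher, at 11.3, 11.7 and 10.3 CPM against 4.64, 6.41 and 4.67 CPM. Its log2 fold change was 1.08 (SE 0.15, adjusted p = 5.71e-04 in edgeR). Ntn3 was at 8.49 to 10.4 CPM and 7.81 to 10.5 CPM, which overlap throughout (log2 fold change 0.02, SE 0.14, adjusted p = 0.924 in edgeR). Ntn5 had 1 and 7 counts in the 2 fractions and was not tested. GFP-positive cells thus held more Dcc, Neo1, Unc5a and Unc5c transcript and less Ntn1 transcript than GFP-negative cells.

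**Figure D2:**
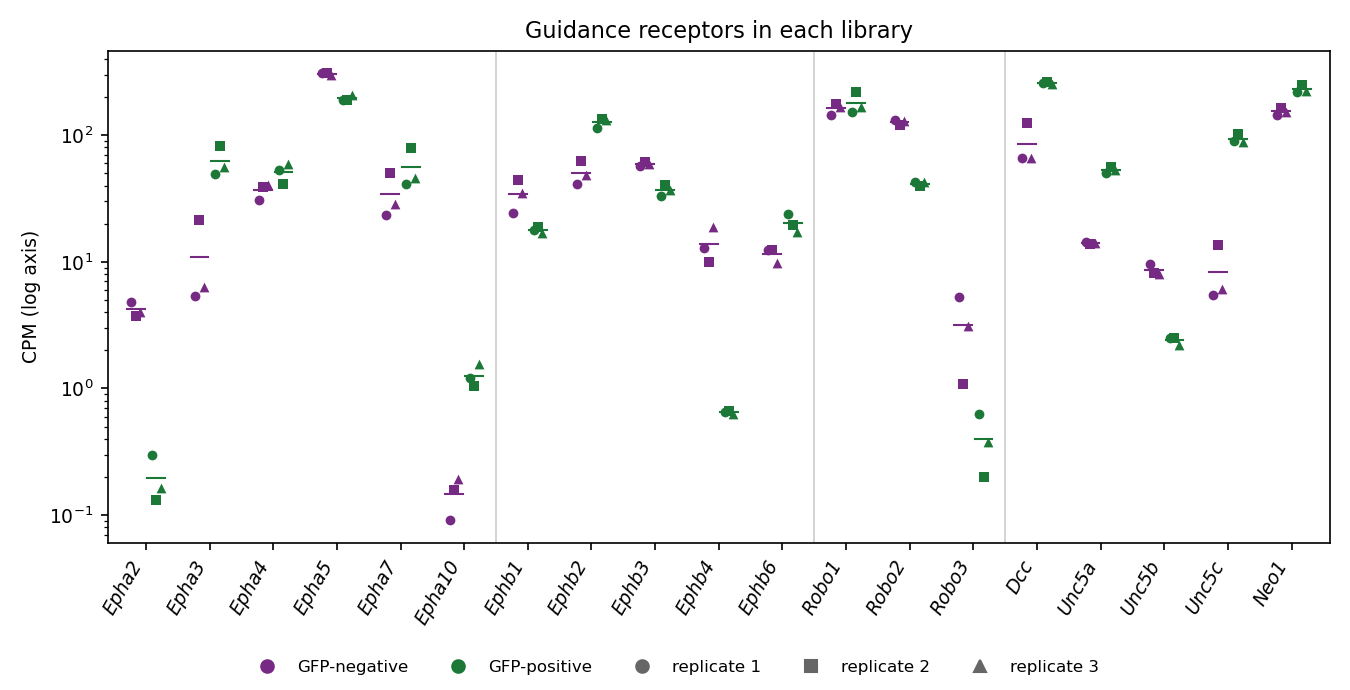
CPM of each tested receptor in each library on a log axis, with EphA, EphB, Robo and netrin receptors in blocks from left to right; purple is GFP-negative, green GFP-positive, marker shapes are replicates and lines are group means. Ephb4 drops from 9.88 to 19.0 CPM in GFP-negative to under 1 CPM in GFP-positive libraries, and the GFP-negative replicate 2 squares stand above the other two for Epha3, Dcc and Unc5c.

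Eph receptors were almost all called, 5 higher and 5 lower of 11 tested (90.9%, against 55.4% of all tested genes). The lower receptors included 2 with nearly no signal in GFP-positive cells. Ephb4 (Entrez 13846), the receptor of ephrin-B2, best known from veins, was at 0.654, 0.662 and 0.626 CPM in GFP-positive cells, against 12.8, 9.88 and 19.0 CPM in GFP-negative cells. Its log2 fold change was -4.41 (SE 0.28, adjusted p = 1.00e-05 in edgeR), or 21.3-fold lower. Epha2 (Entrez 13836), a receptor of many epithelia, was at 0.300, 0.132 and 0.163 CPM against 4.85, 3.76 and 4.05 CPM. It also had a log2 ratio of -4.41 (SE 0.32, adjusted p = 1.88e-05 in edgeR), resting on 23 counts in the 3 GFP-positive libraries and 403 in the GFP-negative ones.

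Endothelial markers were few in these cells. Over the 6 listed, the summed level was 1.39 to 2.26 CPM in GFP-positive cells, against 2.55 to 9.82 CPM in GFP-negative libraries. Flt1 made up most of the highest sum, at 7.78 CPM in GFP-negative replicate 3, which also had the highest Ephb4. Cldn5, a tight junction protein that defines brain and cord vessels, had 0 counts in every library, and Cdh5 was at 0.0648 CPM or less. Flt1 was itself called lower in GFP-positive cells (log2 fold change -4.10, adjusted p = 0.00294 in edgeR), while Pecam1 and Kdr were not called. The part of vessel cells in the Ephb4 result was not tested.

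The most abundant EphA receptor, Epha5 (Entrez 13839), was moderately lower. It stood at 191, 191 and 206 CPM in GFP-positive cells, against 309, 308 and 297 CPM in GFP-negative cells, which gave a log2 ratio of -0.63 (SE 0.05, adjusted p = 3.85e-05 in edgeR). Ephb3 (Entrez 13845) was at 32.8, 40.5 and 36.8 CPM against 57.5, 61.6 and 58.8 CPM, which gave a log2 ratio of -0.69 (SE 0.08, adjusted p = 2.44e-04 in edgeR). Ephb1 was lower by a like amount but varied more among GFP-negative libraries. It lay at 16.9 to 18.9 CPM in GFP-positive cells and at 24.1, 44.4 and 34.9 CPM in GFP-negative replicates 1, 2 and 3 (log2 fold change -0.95, SE 0.19, adjusted p = 0.0037 in edgeR).

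Among the higher Eph receptors, Ephb2 and Epha3 carried the most counts in the GFP-positive libraries. Epha3 (Entrez 13837), a receptor with high affinity for ephrin-A5, was at 49.5, 81.7 and 56.4 CPM in GFP-positive cells, against 5.34, 21.3 and 6.38 CPM in GFP-negative cells. Replicate 2 was the highest in both fractions, and the fractions still did not overlap. The fold change on the log2 scale was 2.51 (SE 0.49, adjusted p = 0.00282 in edgeR). It was 3.43 without GFP-negative replicate 2. Ephb2 (Entrez 13844), which sorts cells and axons by B ephrins, was at 114, 133 and 132 CPM against 41.1, 62.4 and 48.3 CPM, which gave a log2 ratio of 1.32 (SE 0.14, adjusted p = 1.32e-04 in edgeR).

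Ephb6 (Entrez 13848), whose kinase domain is inactive, was higher by 0.80 (SE 0.15), at 17.3 to 23.8 CPM against 9.75 to 12.5 CPM. Epha10, a second receptor without kinase activity, was higher by 3.06 (SE 0.39), but stood at only 1.04 to 1.55 CPM in GFP-positive cells and rested on 14 counts in the GFP-negative libraries. The edgeR adjusted p values were 0.00215 for Ephb6 and 3.00e-04 for Epha10. Epha4, the EphA receptor that also binds B ephrins, was higher by 0.48 (SE 0.15, adjusted p = 0.0243 in edgeR), at 41.1 to 58.7 CPM against 30.8 to 40.5 CPM. The fractions nearly touched, and leaving out single libraries or numbers ended the call in 5 of 9 fits, with adjusted p up to 0.175.

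Epha7 (Entrez 13841) differed between replicates within each fraction. Its levels were 41.1, 79.8 and 46.1 CPM in GFP-positive cells, against 23.6, 50.1 and 28.5 CPM in GFP-negative replicates 1, 2 and 3, so the fractions overlapped while each pair had the GFP-positive library higher. The log2 fold change of 0.71 (SE 0.32) was not called (adjusted p = 0.0943 in edgeR). With the replicate block, which compares within the numbered pairs, it was 0.72 with adjusted p = 4.05e-05.

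Of the 8 ephrins, 2 were higher, 2 lower and 4 not called. The called share of 50% was near the 55.4% of all tested genes. Efnb1 (Entrez 13641), a transmembrane ligand of EphB receptors, was the clearest. It stood at 11.4, 11.5 and 11.7 CPM in GFP-positive cells, against 27.0, 27.1 and 25.8 CPM in GFP-negative cells, each fraction within a narrow band, which gave a log2 ratio of -1.21 (SE 0.08, adjusted p = 9.90e-06 in edgeR). Efna4 (Entrez 13639), a lipid-anchored ligand, was at 1.5, 1.17 and 1.22 CPM against 3.70, 3.00 and 4.18 CPM, which gave a log2 ratio of -1.48 (SE 0.22, adjusted p = 6.69e-04 in edgeR).

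The 2 higher ephrins moved by small amounts. Efnb3, a B ephrin of the cord midline, was at 11.5 to 13.9 CPM in GFP-positive cells, against 6.73 to 10.3 CPM in GFP-negative cells, which gave a log2 ratio of 0.65 (SE 0.17, adjusted p = 0.0118 in edgeR). It lost its call without replicate 1 and without replicate 3 (adjusted p = 0.124 and 0.0677). Efna2 was at 20.4 to 21.8 CPM against 14.3 to 18.7 CPM, which gave a log2 ratio of 0.41 (SE 0.11, adjusted p = 0.0154 in edgeR). Its call was lost without GFP-negative replicate 1 (0.0507), without replicate 1 (0.123) and without replicate 3 (0.0825).

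Efnb2 (Entrez 13642), the ligand that Ephb4 binds best, was called or not depending on the fit. It was at 9.10, 13.0 and 9.60 CPM in GFP-positive cells, against 2.76, 8.70 and 2.37 CPM in GFP-negative replicates 1, 2 and 3, so GFP-negative replicate 2 lay close to the GFP-positive range without entering it. The log2 fold change of 1.20 (SE 0.45) was not called (adjusted p = 0.0513 in edgeR). With the replicate block it was 1.37 (adjusted p = 0.00223), with no low-count filter 1.21 (0.0193), and without GFP-negative replicate 2 it was 2.05 (3.30e-05). Without replicate 2 in both fractions it was called as well (1.87, 4.62e-05). The other 7 of 9 leave-out fits did not call Efnb2, with fold changes down to 0.89 and adjusted p up to 0.198. DESeq2, RLE and upper-quartile scaling and the filter at a CPM of 1 in 3 libraries did not call it either.

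The A ephrins Efna1, Efna3 and Efna5, all at low levels, were not called. Efna1 was at 0.729 to 1.44 CPM in GFP-positive cells, against 1.27 to 2.29 CPM in GFP-negative cells, Efna3 at 1.72 to 2.49 and 2.2 to 3.99 CPM, and Efna5 at 1.88 to 2.27 and 0.485 to 1.39 CPM. Their log2 fold changes were -0.92, -0.64 and 0.93, with edgeR adjusted p of 0.0548, 0.0763 and 0.0626. With the replicate block, adjusted p was 0.0342 for Efna1 and 0.0343 for Efna5. Efna3 passed without GFP-negative replicate 2 (-0.83, adjusted p = 0.0167).

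**Figure D3:**
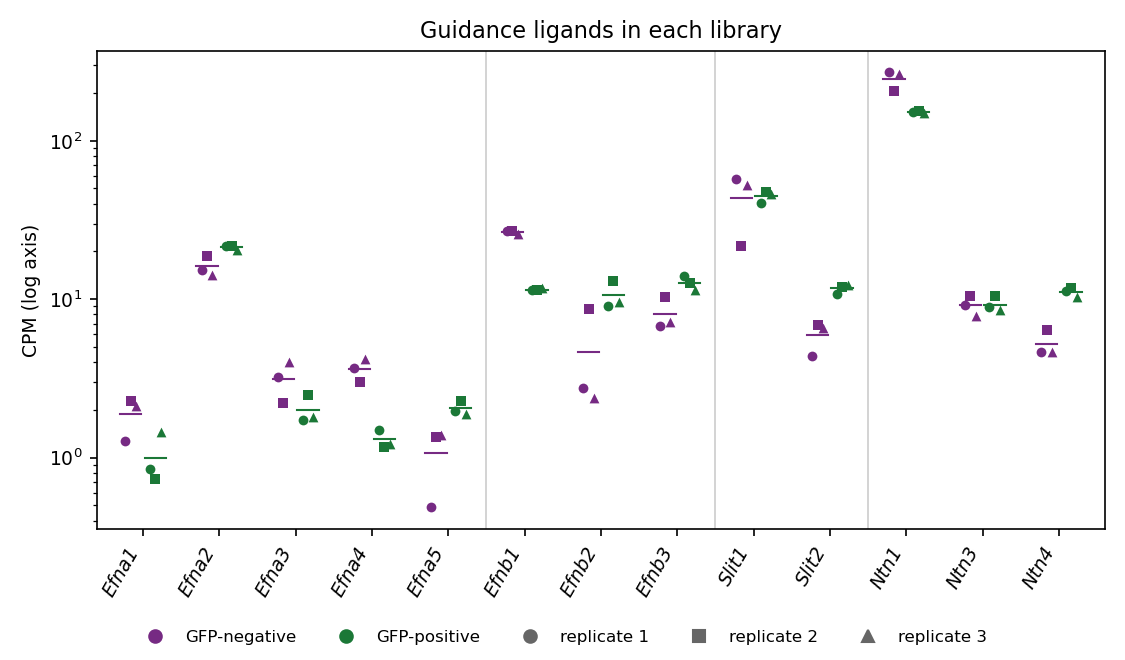
CPM of each tested ligand in each library on a log axis, with A ephrins, B ephrins, Slits and netrins in blocks; purple is GFP-negative, green GFP-positive, marker shapes are replicates and lines are group means. Ntn1 stands above the other ligands in both fractions, and the GFP-negative replicate 2 square departs from the other two for Slit1 (21.7 CPM) and Efnb2 (8.70 CPM).

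In the Slit and Robo families, Robo2 was the clearest difference. Robo2 (Entrez 268902), a Slit receptor, stood at 42.7, 39.4 and 42.3 CPM in GFP-positive cells, against 132, 121 and 130.1 CPM in GFP-negative cells. On the log2 scale it differed by -1.62 (SE 0.06, adjusted p = 1.79e-06 in edgeR), or 3.08-fold lower. Its paralogue Robo1 (Entrez 19876) overlapped, at 153, 218 and 166 CPM against 144, 176 and 167 CPM, which gave a log2 ratio of 0.14 (SE 0.13, adjusted p = 0.409 in edgeR). Robo3, a divergent Robo known from commissural axons, was lower by 2.99 on the log2 scale (SE 0.63, adjusted p = 0.00412 in edgeR). It was scarce and uneven, at 0.199 to 0.627 CPM in GFP-positive cells, against 5.31, 1.08 and 3.11 CPM in GFP-negative replicates 1, 2 and 3.

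Of the Slits, Slit2 (Entrez 20563) was higher, at 10.7, 12 and 12.3 CPM against 4.37, 6.85 and 6.58 CPM, which gave a log2 ratio of 0.98 (SE 0.18, adjusted p = 0.00192 in edgeR). Slit1 (Entrez 20562) gave 40.5, 47.7 and 46.1 CPM in GFP-positive cells and 57.1, 21.7 and 52.5 CPM in GFP-negative cells. GFP-negative replicate 2 was the lowest of all 6 libraries and the other two GFP-negative libraries were the highest. The log2 fold change was 0.03 (SE 0.30, adjusted p = 0.936 in edgeR). Without GFP-negative replicate 2 the sign turned, to -0.28 with adjusted p = 0.0165.

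Since the fractions moved members of a family apart, the makeup of each family was set out per length, as CPM per kilobase of the principal GENCODE M21 transcript, which can differ from the annotation the authors counted on. On that scale the EphB receptors of GFP-positive cells were led by Ephb2, with 39.1% ± 2.37 (SD, n = 3) of the family, and those of GFP-negative cells by Ephb3, with 43.9% ± 3.19 (SD, n = 3). Ephb4 held 9.96% ± 3.45 of the family in GFP-negative and 0.502% ± 0.0216 in GFP-positive cells (SD, n = 3). In B ephrins, Efnb1 held 70.7% ± 7.29 in GFP-negative cells and 36.5% ± 2.22 in GFP-positive cells (SD, n = 3), where Efnb3 held 40.9% ± 3.28. Unc5c held 2.39% ± 0.915 of the netrin receptors in GFP-negative and 12.1% ± 0.396 in GFP-positive cells (SD, n = 3), and Neo1 60% ± 4.39 and 39.1% ± 0.699. These shares are descriptions with no test, and a share also depends on the levels of the other members. The Neo1 share was smaller in GFP-positive cells while its own level was called higher (230.3 against 154 CPM).

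Robo1 and Robo2 held 49.4% ± 4.05 and 49.1% ± 2.98 of the Robo family per length in GFP-negative cells (SD, n = 3). In GFP-positive cells they stood at 76.7% ± 4.03 and 22.9% ± 3.90, although Robo1 itself was not called (log2 fold change 0.14). In the EphA family, Epha5 held 82.5% ± 4.04 in GFP-negative and 60.2% ± 4.37 in GFP-positive cells (SD, n = 3), and Epha3 2.39% ± 1.80 and 15.7% ± 3.27. With merged exon lengths in place of the principal transcript, a choice made after seeing the data, Epha5 held 64.4% and 37.9%, and Epha3 4.26% and 22.9%. By that length Robo1 held 55.1% and Robo2 42.2% in GFP-negative cells, and 80.8% and 18.6% in GFP-positive cells. Unc5c then held 1.44% of the netrin receptors in GFP-negative and 7.58% in GFP-positive cells. Ntn1 held 92.5% ± 2.19 of the netrins in GFP-negative and 84.2% ± 0.812 in GFP-positive cells (SD, n = 3). Slit1 held 92.1% ± 5.33 and 88.2% ± 0.371 of the Slits.

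**Figure D4:**
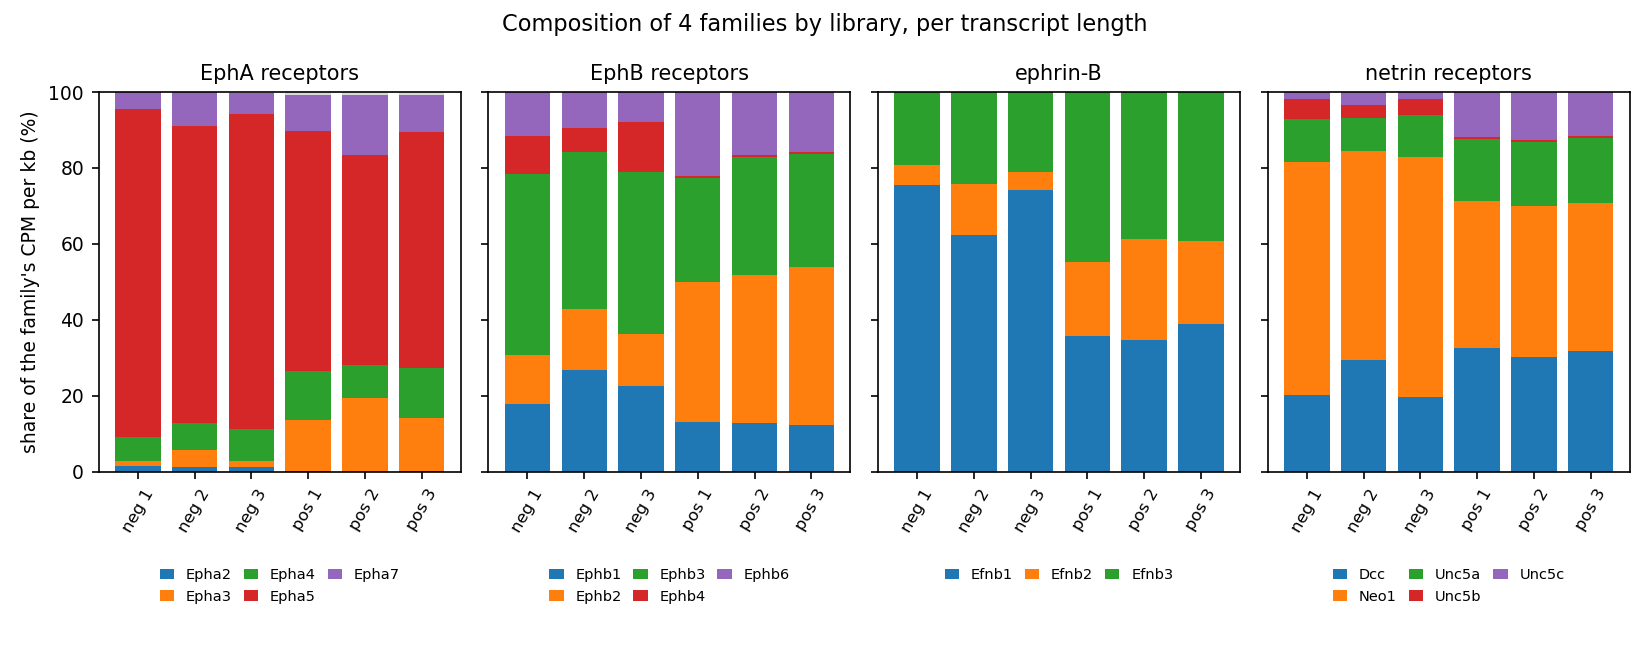
Share of each family's CPM per kilobase held by each member, in percent, as stacked bars for the 3 GFP-negative (neg) and 3 GFP-positive (pos) libraries in 4 families; members under 1% in every library are drawn in light grey. Ephb2, Efnb3, Epha3 and Unc5c take larger shares in each GFP-positive library than in each GFP-negative one.

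The window before the annotated start is shown for pairs within 1 family that moved in opposite directions: Unc5c and Unc5b, Epha3 and Epha2, and Ephb2 and Ephb4, the first of each pair being higher in GFP-positive cells. Each is the 250 bases before the start from RefSeq on GRCm38.p6, a build older than the mm39 of the authors, printed 5′ to 3′ along the gene's strand. The bases after the RefSeq start were found near the beginning of a GENCODE M21 transcript for Unc5b, Epha3 and Ephb4 and not for the other 3. Capitals mark GC boxes, the letters GGGCGG or CCGCCC, the GC-rich motif that Sp factors bind.
Unc5c, chr3:141465314-141465563, plus strand: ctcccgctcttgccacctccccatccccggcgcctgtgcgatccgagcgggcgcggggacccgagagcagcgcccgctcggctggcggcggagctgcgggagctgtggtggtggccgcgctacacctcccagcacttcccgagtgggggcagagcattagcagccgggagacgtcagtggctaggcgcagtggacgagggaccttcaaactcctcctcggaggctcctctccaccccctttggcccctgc
Unc5b, chr10:60831582-60831831, minus strand: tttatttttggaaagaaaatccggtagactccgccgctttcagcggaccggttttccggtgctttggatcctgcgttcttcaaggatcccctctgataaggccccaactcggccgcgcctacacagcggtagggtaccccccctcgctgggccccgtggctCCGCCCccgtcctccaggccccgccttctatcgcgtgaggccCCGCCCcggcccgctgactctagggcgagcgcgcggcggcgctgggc
Epha3, chr16:63864176-63864425, minus strand: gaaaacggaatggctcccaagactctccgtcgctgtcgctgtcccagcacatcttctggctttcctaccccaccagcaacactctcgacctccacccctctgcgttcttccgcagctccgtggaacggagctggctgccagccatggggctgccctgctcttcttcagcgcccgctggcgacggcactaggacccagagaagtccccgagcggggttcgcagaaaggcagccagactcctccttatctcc
Epha2, chr4:141300971-141301220, plus strand: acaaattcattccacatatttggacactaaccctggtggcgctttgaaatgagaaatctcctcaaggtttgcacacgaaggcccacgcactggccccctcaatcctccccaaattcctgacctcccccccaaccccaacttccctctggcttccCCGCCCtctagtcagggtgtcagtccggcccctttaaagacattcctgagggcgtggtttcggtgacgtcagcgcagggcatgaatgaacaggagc
Ephb2, chr4:136836013-136836262, minus strand: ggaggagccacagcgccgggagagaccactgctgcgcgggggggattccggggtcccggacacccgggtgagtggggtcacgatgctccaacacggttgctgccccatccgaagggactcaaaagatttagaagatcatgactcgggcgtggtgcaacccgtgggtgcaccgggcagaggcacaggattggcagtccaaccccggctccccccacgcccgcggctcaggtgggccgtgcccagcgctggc
Ephb4, chr5:137349859-137350108, plus strand: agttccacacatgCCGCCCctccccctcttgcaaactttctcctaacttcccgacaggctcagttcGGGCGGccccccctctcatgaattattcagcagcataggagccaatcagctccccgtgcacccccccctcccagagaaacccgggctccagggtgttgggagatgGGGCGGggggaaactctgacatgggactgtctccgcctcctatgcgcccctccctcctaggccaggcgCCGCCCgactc

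In these windows the 3 higher genes had no GC box, while Epha2 had 1, Unc5b 2 and Ephb4 4. Over the members with a window, a GC box on either strand stood in 8 of 11 windows of higher members, 6 of 10 of lower members and 32.7% of all 32851 windows of that length. None of the 6 windows held an E-box CAGCTG, a Sox motif ACAAAG or ACAATG, or the RBPJ motif TGGGAA, each searched on both strands. Those motifs stood in 13.0%, 25.2% and 21.6% of all windows. The guidance windows had a median of 16.5 CG pairs over the 34 members that had a window (first listed window of each), against 6 over all windows. The median was 25 in higher and 12 in lower members. The set of all windows was not limited to tested genes or to 1 window per gene. It is thus unlike the member set, and whether members differ from other expressed genes was not tested. A match describes letters in a window, and no match says only that these letters are not there.

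One GFP-negative library lay nearer to the GFP-positive cells than the other two in many members. Among the 13 higher members, GFP-negative replicate 2 was the highest GFP-negative library in 10, replicate 3 in 2 and replicate 1 in 1. Over all 3804 higher genes in the table, replicate 2 was the highest in 57.7%. Among the 11 lower members it was the lowest GFP-negative library in 6, against 56.2% of all 4254 lower genes. Of the precursor markers, Pdgfra (19.3 CPM), Sox10 (12.5 CPM), Olig1, Olig2 and Gpr17 were highest among GFP-negative libraries in replicate 2, while Cspg4 was lowest there, at 153 CPM against 208 and 188 CPM. The whole precursor list summed to 2350.2 CPM in that library and to 2307 and 2105 CPM in the other two, and the neuronal list to 13.4 CPM against 7.31 and 7.74 CPM. The astrocyte list lay between the others, at 2421 CPM against 2116 and 2496 CPM, but its member Aldh1l1 was far highest in replicate 2, at 121 CPM against 15.2 and 26.9 CPM. Without it, 16 members were higher and 13 lower. The part of the sort or of the cells in that library was not tested.

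Number 315 (replicate 2) also stood out within both fractions. In 12 of the 32 tested members its library was the highest of the GFP-positive and of the GFP-negative libraries at once, a share of 37.5% against 17.7% of all tested genes. The 12 were Epha3, Epha7, Ephb1, Ephb2, Ephb3, Efnb2, Robo1, Ntn3, Ntn4, Dcc, Unc5c and Neo1. Epha3, Ephb2, Ntn4, Dcc, Unc5c and Neo1 are also among the higher members counted above for GFP-negative replicate 2, so the counts overlap. In the lower members Ephb1 and Ephb3 that library was the farthest from the GFP-positive cells. Replicate 1 was highest in both fractions in 4 members (12.5%, against 10.8% of all tested genes) and replicate 3 in 2 (6.25%, against 11.9%). Replicate 1 was the lowest in both fractions in 7 members (21.9%, against 11.1%), replicate 2 in 4 (12.5%, against 17.4%) and replicate 3 in 4 (12.5%, against 10.6%).

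The proteins that work with these receptors were called in both directions as well. Of 86 tested genes among 90 listed partners, 28 were higher and 29 lower (66.3% called, against 55.4% of all tested genes), with a median log2 fold change of 0.01. For Eph and ephrin signalling, 5 were higher and 10 lower of 29 tested. That is 51.7% called, slightly below the share of all tested genes. The 3 higher genes with the smallest p were Tiam1 and Kalrn, exchange factors for Rac, and Pick1, a PDZ protein that binds ephrin-B and Eph tails. Tiam1 was at 54.1 to 55.0 CPM against 20.1 to 25.7 CPM (log2 fold change 1.28, SE 0.09), Kalrn was higher by 1.38 and Pick1 by 0.53. On the lower side were Ptpn13, a phosphatase of the ephrin-B tail, at 14.0 to 15.0 CPM against 76.8 to 81.0 CPM (log2 fold change -2.45, SE 0.06), the exchange factor Vav3 at -2.38 and Pdzrn3, a PDZ ubiquitin ligase, at -2.11.

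For Slit and Robo signalling, 11 were higher and 9 lower of 29 tested (69% called, against 55.4% of all tested genes). Flrt3, a membrane protein that binds Robo1 and Unc5 receptors, was at 53.4 to 56.7 CPM in GFP-positive cells, against 17.7 to 23.0 CPM in GFP-negative cells, which gave a log2 ratio of 1.48 (SE 0.10, adjusted p = 1.59e-05 in edgeR). Usp33, a deubiquitinase that binds Robo1, and Arhgap39, the mammalian Vilse that links Robo to Rac, were both higher by 0.44. Dag1, the dystroglycan that binds Slits, was lower, at 197 to 199 CPM against 365 to 447 CPM (log2 fold change -1.05, SE 0.08). Cap2, an actin regulator, had a value of -0.74 and Ext1, which builds the heparan sulfate that Slits need, one of -0.42.

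For netrin and neogenin signalling, 12 were higher and 11 lower of 30 tested (76.7% called, against 55.4% of all tested genes). The related ubiquitin ligases Trim67 and Trim9, both of which bind Dcc, moved in opposite directions. Trim67 was at 149, 144 and 136 CPM in GFP-positive cells, against 26.7, 31.1 and 23.1 CPM in GFP-negative cells, which gave a log2 ratio of 2.41 (SE 0.10, adjusted p = 2.51e-06 in edgeR). Trim9 was at 91.3, 109 and 95.4 CPM against 269, 301 and 325 CPM, which gave a log2 ratio of -1.60 (SE 0.09, adjusted p = 6.84e-06 in edgeR). Dscaml1 and Dscam, cell adhesion molecules of which the latter binds netrin, were higher by 2.59 and 1.13. Rgma, the repulsive ligand of neogenin, was at 107 to 120.2 CPM in GFP-positive cells, against 352 to 470.0 CPM in GFP-negative cells (log2 fold change -1.80, SE 0.11), and Dock1, a Rac activator downstream of Dcc, had a value of -1.15.

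The remaining 7 members, Epha1, Epha6, Epha8, Unc5d, Robo4, Slit3 and Ntn5, did not pass the count filter. None exceeded 0.272 CPM in any library, and none had more than 20 counts over the 6 libraries. Robo4, the Robo of blood vessels, had 7 counts in GFP-positive libraries, against 2 in GFP-negative libraries, and Slit3 had 9 and 1. Exons of 11 members share bases with another gene in GENCODE M21, 8 of them tested. On the opposite strand these include Unc5c (118 bases with Gm15688), Ephb1 (152 with Gm26846) and Epha10 (79 with 1700125G02Rik). Unc5a (34 with Hk3) and Ephb4 (33 with Zan) overlap protein-coding genes there. The strand setting of the counting is not given in the sources used here, so reads of these genes cannot be told apart from the members' own. Ntn3 shares 89 bases with the protein-coding Tbc1d24 on the same strand, which no strand setting would separate.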

How the data were processed

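Gene-level RNA-seq counts were analysed for 3 GFP-positive and 3 GFP-negative libraries, grouped by the fraction in their titles. The authors deposited raw read counts per gene with no normalization, per the file headers. RNeasy RNA went into SMART-Seq Stranded libraries, per the labels' protocols. The submitters' processing notes name TopHat2 2.1.1, featureCounts 2.0.0 and mm39. Not given in the sources used here: annotation, strand setting, duplicate handling. The counts may thus hold PCR copies, and precision from depth covers counting error only.

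Counts of all genes were fitted with edgeR 4.0.16 (R 4.3.3): TMM scaling, filterByExpr, quasi-likelihood F tests, p adjusted by Benjamini-Hochberg over 14554 genes, and a threshold of 0.05. The fit was tested on simulated data. CPM are on TMM-scaled library sizes, and the SE is the fold change over the root of F. Within a group, libraries differed beyond counting noise, with chi-square values of 9.83 to 34.2 per degree of freedom. The labels do not name separate animals or cultures, so the p-values rest on sample-to-sample spread that could be technical. The main fit compared the fractions with no term for pairs, so its p-values are unpaired. Among the fits, only the replicate block paired libraries, by their shared title numbers, whose meaning the labels do not give. Deviations from the group mean correlated at 0.218, 0.355 and 0.159 across genes in the same-numbered pairs. Differently numbered libraries were not compared, so these values cannot settle the pairing. The blocked value is given where it changes a call.

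Alternatives were RLE and upper-quartile scaling, no filter, a CPM of 1 in 3 libraries, DESeq2 1.42.0, the replicate block, and leaving out each library or number. Every member is named. Of each of 3 partner lists, the 3 called genes with the smallest p in each direction are named. The members and lists were chosen with earlier results of these data known.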

Additional observations from a re-analysis of the deposited data

How the results depend on the processing

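The count of members called kept its side of 1.5 times in all 15 alternatives, at 10 to 16 higher and 11 to 13 lower, and 21 of the 24 called members kept direction and call in each of them, DESeq2 included. The exceptions were Epha4, Efna2 and Efnb3. Leaving out a library or a number moved the ligand counts most: higher ligands lay between 2 (without replicate 1 or 3) and 6 (without GFP-negative replicate 2), and lower ligands between 3 and 5 (without replicate 2, or its GFP-negative library). The count of all genes higher ranged from 2450 (without replicate 3) to 4169 over such fits. With the replicate block, 16 members were higher and 12 lower; Efna1, Efna5, Efnb2 and Epha7 were added, and it changed no other member's call. The sign of 3 members that were not called turned, with ranges over the leave-out fits of -0.07 to 0.14 for Ntn3, -0.02 to 0.25 for Robo1 and -0.33 to 0.35 for Slit1. Ntn3 was at -0.00035 with upper-quartile scaling, and at -0.07, -0.06 and -0.02 without GFP-negative replicate 3, GFP-positive replicate 2 and replicate 3. Robo1 was at -0.02 and Slit1 at -0.01 without GFP-positive replicate 2. Slit1 was at -0.28 without GFP-negative replicate 2 and -0.33 without replicate 2. The cause was not tested. The named partner genes kept direction and call in each alternative. Depth limits the members under the filter and Epha10, Epha2 and Robo3, which had few counts in 1 fraction.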
